A study of Mus musculus with 16 samples.

Results

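The genes described here are 43 genes of DNA replication and cell division, of 46078 gene rows counted in each library of mouse intestinal organoids, closed epithelial structures grown from gut crypts in a gel. They are a list of symbols, each matched to a single Ensembl identifier, and they were sorted by function into a replication class of 20 genes, a mitosis class of 20 genes and the 3 D-type cyclins. The study, whose title concerns competition between Apc mutant and normal cells at the start of intestinal tumours, sequenced RNA from 16 libraries in 6 groups. All 43 genes passed the filter on low counts and were tested.

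All groups are labelled C57BL6, and per the labels' protocols the crypts came from Lgr5-EGFP-IRES-CreERT2 mice, from the same mice with Apc fl/fl, or from Villin-CreERT2 Apc fl/fl mice. Lgr5 marks crypt base stem cells and Villin the intestinal epithelium as a whole, so the drivers recombine different cells, and the labels do not say which driver stands behind a given library. 4OH-Tamoxifen was added in culture to recombine Apc, wild type organoids carried an mCherry construct (LeGO-C2), mutant organoids a Venus construct (LeGO-V2), and all received EGF, R-spondin and Noggin. The untreated groups are Apc mutant (APC) and wild type (WT) organoids on culture day 2, with 2 libraries each. The groups in conditioned medium, medium taken from other organoid cultures and supplemented again with the growth factors, are labelled APCCM and WTCM on day 4 and on day 2, with 3 libraries each. APCCM libraries carry the genotype label Apc mutant and WTCM libraries the label WT, and the treatment label names medium from mutant cultures for all 12. No label used here gives the age of the mice or says whether replicates came from separate cultures or animals. P-values therefore measure the spread between these libraries, which may be technical.

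A dividing cell passes from G1 through DNA synthesis (S phase) and G2 into mitosis. D-type cyclins with Cdk4 or Cdk6 release E2F transcription factors from the retinoblastoma protein, E-type cyclins with Cdk2 start S phase, and E2F factors switch on genes for the MCM helicase, the replication fork and nucleotide synthesis. Genes for cyclin B, the mitotic kinases, the spindle and the centromere follow in G2, under the MuvB, B-Myb and FoxM1 complex. In the gut, division takes place among crypt stem cells and progenitors, and Wnt signalling, which Apc restrains, keeps these cells dividing.

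The promoters of both classes differed in the words they hold, and 5 are shown because they carry these words near the start site. Of the 43 genes, 34 had a window of 250 bases before to 50 bases after the start in RefSeq (GRCm38.p6). The E2F site was searched as the word TTCCCGC and equally as the word TTGGCGC, as well as by the words TTCGCGC and, with the same weight, TTGCCGC. The cell cycle homology region (CHR), which MuvB complexes bind, was searched by the word TTTGAA and by the word TTCGAA, and the box bound by NF-Y as CCAAT. Both strands were read, and overlapping matches were counted. An E2F word stood in 10 of 16 replication promoters (62.5%) and 3 of 17 mitosis promoters (17.6%), beside 9.69% of 27025 promoters in the table. A CHR word together with CCAAT stood in 4 of 16 replication promoters (25.0%) and 14 of 17 mitosis promoters (82.4%), beside 7.70% of all. A match is a string of letters and not a measured binding site. In the lines below, each 150 bases long and read along the minus strand 5′ to 3′ from 120 bases before to 30 bases after the start, capitals mark the E2F, CHR and CCAAT words. Mcm6 (chr1:128359676-128359825) and Mcm3 (chr1:20820283-20820432) encode subunits of the replicative helicase, and each long run of capitals in Mcm6 holds a pair of overlapping E2F words. Ccnb2 (chr9:70421525-70421674) encodes cyclin B2, Cdc20 (chr4:118437314-118437463) an activator of the anaphase-promoting complex, and Cdk1 (chr10:69352883-69353032) the kinase that starts mitosis. The full window of Cdk1 also holds 2 E2F words, which lie outside the stretch shown.
Mcm6: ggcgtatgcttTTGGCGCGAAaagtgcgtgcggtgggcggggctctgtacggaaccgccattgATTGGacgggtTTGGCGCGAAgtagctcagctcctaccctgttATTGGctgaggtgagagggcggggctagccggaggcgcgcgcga
Mcm3: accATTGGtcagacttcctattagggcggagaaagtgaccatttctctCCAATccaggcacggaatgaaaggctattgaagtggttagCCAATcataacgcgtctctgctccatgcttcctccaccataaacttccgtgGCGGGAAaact
Ccnb2: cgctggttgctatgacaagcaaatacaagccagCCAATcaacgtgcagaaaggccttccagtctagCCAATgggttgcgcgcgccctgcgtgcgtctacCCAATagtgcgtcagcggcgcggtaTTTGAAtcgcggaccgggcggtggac
Cdc20: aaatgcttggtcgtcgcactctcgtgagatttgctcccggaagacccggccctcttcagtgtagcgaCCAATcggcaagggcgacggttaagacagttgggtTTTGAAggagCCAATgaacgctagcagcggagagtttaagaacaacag
Cdk1: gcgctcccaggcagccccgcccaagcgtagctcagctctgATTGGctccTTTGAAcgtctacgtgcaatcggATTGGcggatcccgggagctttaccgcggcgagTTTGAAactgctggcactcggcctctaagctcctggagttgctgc

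Reads assigned to genes numbered 8325979 to 13027701 per library in the untreated groups and 17986815 to 29152692 in conditioned medium. Levels are CPM, a gene's reads for a fixed number of reads in its library, on library sizes scaled by TMM, a normalization that sets aside genes with extreme differences, and a gene is called changed at an adjusted p under 0.05 from edgeR's quasi-likelihood test over 16510 genes. All 9 markers of gut epithelium were read in every group, though not at even levels. In untreated libraries they summed to 3627 to 3963 CPM in APC and 6058 to 6622 CPM in WT. Of the 9, 6 were lower and 2 higher in untreated APC libraries (median log2 fold change -1.26). Notum and Nkd1, Wnt feedback genes that rise after loss of Apc, reached 258 to 312 and 439.8 to 533 CPM in untreated APC libraries, against at most 0.327 and 1.80 CPM in untreated WT libraries. In APCCM libraries they stayed at or below 0.753 and 2.17 CPM, which goes against the genotype label, and APCCM and WTCM may name the source of the medium rather than the cells. The design text of the series also lists other groups than the labels do. Every direction between APCCM and WTCM therefore rests on these titles alone. Of all reads in genes, 7.68 to 11.5% fell in Gm26917, a nuclear RNA gene, under conditioned medium, beside at most 0.00952% in untreated libraries, so untreated and conditioned libraries were not compared. WTCM day 4 replicate 1 stood apart from its group, with a chi-square per degree of freedom of 39.9 and 42.2 against the other replicates where all other pairs of replicates lay between 3.30 and 6.08.

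Per kilobase of exon, Ccnd2 and Mki67 stood highest among the 43 genes in WTCM day 2 libraries, at 93.2 and 75.8 CPM per kb. Ccnd3 and Ccne2 stood lowest there, at 3.56 and 4.02 CPM per kb. In untreated APC libraries Ccnd1 led at 111 CPM per kb and E2f2 was lowest at 1.59 CPM per kb. The coefficient of variation between replicates had a median over the 43 genes of 2.66 to 6.67% across the 6 groups.

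Mitosis genes were lower on day 4 than on day 2 in conditioned medium under both labels, while most replication genes were not called. Among the 20 mitosis genes, 16 fell in APCCM libraries and 19 in WTCM libraries, with median log2 fold changes of -0.28 and -0.33. Of the 20 replication genes, 3 fell and 1 rose in APCCM libraries and 6 fell and 1 rose in WTCM libraries, with medians of -0.09 and -0.10. E2f2 was the gene that rose, and the E-type cyclin Ccne2 fell most. Over all 16510 genes, 23.9% were called between days in APCCM libraries (12.2% higher, 11.7% lower) and 24.1% in WTCM libraries (12.5% higher, 11.6% lower), with a median log2 fold change of 0.00 under either label. Of the 43 members, 20 (46.5%) and 27 (62.8%) were called. All 19 genes that fell in APCCM libraries also fell in WTCM libraries, which makes 73.1% of the 26 that fell there. These comparisons share no library, but both set the same blocks of deposited samples against each other. The same overlap was not counted over all genes, so it is not known whether it is particular to the members. In such bulk RNA, fewer dividing cells and less RNA per dividing cell cannot be told apart. In conditioned medium, the day 2 and day 4 libraries were deposited as separate blocks of samples, with titles of different form. The share of gene reads in Gm26917 was 9.41 to 11.5% on day 2 and 7.68 to 8.88% on day 4. An effect of day and a difference between these blocks cannot be told apart, under either label.

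To set the classes side by side, the mean log2(CPM + 0.5) over the mitosis genes was subtracted from that over the replication genes in each library. The difference averaged -0.57 ± 0.01 in APCCM day 4 libraries and -0.78 ± 0.02 in APCCM day 2 libraries (SD, n = 3 each). It averaged -0.57 ± 0.02 in WTCM day 4 libraries and -0.76 ± 0.02 in WTCM day 2 libraries (SD, n = 3 each). The day 4 libraries lay between -0.59 and -0.55 and the day 2 libraries between -0.80 and -0.74, without overlap. Between days the difference moved by 0.20 in APCCM and 0.19 in WTCM libraries, mostly through the mitosis mean, which was lower by 0.28 and 0.33 on day 4 where the replication mean was lower by 0.08 and 0.13. Between labels it moved by 0.00 on day 4 and by -0.01 on day 2, and between untreated APC and WT libraries by -0.01. The untreated value rests on how the class is summed up, being 0.18 as a log2 ratio of summed CPM and 0.19 with narrower classes, as large as the day values. These are descriptions of the class means, with no test.

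**Figure D1:**
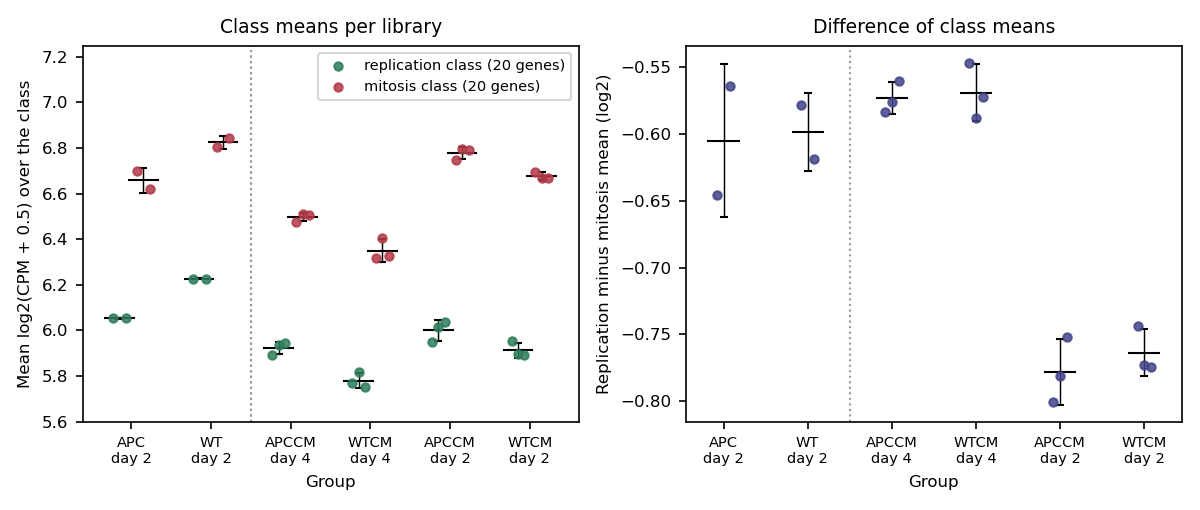
Mean log2(CPM + 0.5) over the 20 replication and the 20 mitosis genes (left) and their difference (right) in each library, by group. Points are libraries, horizontal lines group means and bars the SD. The day 4 libraries in conditioned medium lie at -0.59 to -0.55 in the right panel, above the day 2 libraries at -0.80 to -0.74.

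The mitotic kinases showed the day difference clearly. Aurka (ENSMUSG00000027496, GRCm38 chr2:172356190-172370535, minus strand), a kinase of centrosome and spindle assembly, stood at 34, 38.4 and 38.7 CPM in APCCM day 4 libraries, against 51.96, 55.5 and 50.6 CPM on day 2 (log2 fold change -0.51, SE 0.06, adjusted p = 2.3e-06). In WTCM libraries it stood at 34.1, 37.7 and 37.7 CPM on day 4, against 54.7, 53.4 and 51.2 CPM on day 2 (log2 fold change -0.54, SE 0.06, adjusted p = 1.3e-06). Every day 4 library lay below every day 2 library of its label. Plk1, a kinase that acts at mitotic entry and at the kinetochore, stood at 76.6, 77.96 and 75.5 CPM on day 4 in APCCM libraries, against 106, 114 and 101 CPM on day 2 (log2 fold change -0.48, SE 0.07, adjusted p = 7.1e-06), and at 72.3, 77.2 and 74.1 against 111, 104 and 102 CPM in WTCM libraries (log2 fold change -0.51, SE 0.07, adjusted p = 4.3e-06). Again no day 4 library reached the day 2 range. Bub1b, a spindle checkpoint kinase, stood at 87.2, 86.7 and 86.3 CPM on day 4 in APCCM libraries, against 113, 109 and 109 CPM on day 2 (log2 fold change -0.34, SE 0.05, adjusted p = 2.0e-05). Cdc20 stood at 65.8, 68.8 and 72.6 CPM on day 4 in WTCM libraries, against 98.7, 90.0 and 91.7 CPM on day 2 (log2 fold change -0.44, SE 0.06, adjusted p = 1.5e-05), without overlap. All 8 genes of the mitotic kinase and checkpoint group fell in WTCM libraries and 7 of 8 in APCCM libraries, the exception being the checkpoint kinase Bub1 at -0.16 (SE 0.07). The call of Aurkb in APCCM libraries was lost without day 2 replicate 2 or 3 or day 4 replicate 1 or 3 (adjusted p from 0.054 to 0.13).

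Spindle and centromere genes behaved alike between days. Cenpe (ENSMUSG00000045328, GRCm38 chr3:135212537-135273611, plus strand), a kinesin that carries chromosomes to the spindle equator, stood at 90.1, 94.3 and 95.4 CPM on day 4 in APCCM libraries, against 137, 133 and 127 CPM on day 2 (log2 fold change -0.50, SE 0.05, adjusted p = 1.4e-07). In WTCM libraries the values were 78.9, 84.2 and 79.5 CPM on day 4, against 111, 113 and 113 CPM on day 2 (log2 fold change -0.47, SE 0.05, adjusted p = 6.0e-07). The days did not overlap under either label. Cenpa, the histone variant that marks centromeres, stood at 56.1, 55.9 and 54.1 CPM on day 4 in APCCM libraries, against 72.9, 74.2 and 75.8 CPM on day 2 (log2 fold change -0.43, SE 0.05, adjusted p = 2.3e-06), and at 47.8, 54.1 and 49.4 against 62.8, 65.3 and 68.8 CPM in WTCM libraries (log2 fold change -0.38, SE 0.05, adjusted p = 1.5e-05). Tpx2, which activates Aurora A on the spindle, stood at 79.5, 75.8 and 79.3 CPM on day 4 in APCCM libraries, against 103, 101 and 98.9 CPM on day 2 (log2 fold change -0.37, SE 0.06, adjusted p = 2.6e-05), and at 71.8, 71.2 and 69.3 against 95.8, 91.1 and 91.4 CPM in WTCM libraries (log2 fold change -0.39, SE 0.06, adjusted p = 1.6e-05). Of the 6 genes in this group, 5 fell under each label, and Kif23, a kinesin of cytokinesis, was not called, at -0.05 (SE 0.05) in APCCM and -0.12 (SE 0.05) in WTCM libraries.

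Cdk1 and its cyclins fell as well. Ccnb2 stood at 48.4, 52.6 and 48.5 CPM on day 4 in APCCM libraries, against 64.2, 71.4 and 68.8 CPM on day 2 (log2 fold change -0.45, SE 0.05, adjusted p = 1.3e-06), and at 49.5, 53.7 and 50.3 against 60.4, 61.5 and 61.6 CPM in WTCM libraries (log2 fold change -0.26, SE 0.05, adjusted p = 0.0012). Ccna2, cyclin A2, stood at 136, 144 and 146 CPM on day 4 in APCCM libraries, against 162, 174 and 184 CPM on day 2 (log2 fold change -0.29, SE 0.06, adjusted p = 5.9e-04), and at 125, 136 and 129 against 165, 159 and 162 CPM in WTCM libraries (log2 fold change -0.32, SE 0.06, adjusted p = 2.2e-04). Cdk1 stood at 82.3, 85.96 and 86.4 CPM on day 4 in APCCM libraries, against 93.8, 100.4 and 95.2 CPM on day 2 (log2 fold change -0.18, SE 0.06, adjusted p = 0.02), and at 71.01, 80.7 and 72.5 against 93.9, 91.1 and 90.2 CPM in WTCM libraries (log2 fold change -0.30, SE 0.06, adjusted p = 4.8e-04). No day 4 library of these 3 genes reached its day 2 range. Exons of Ccna2 overlap those of the antisense gene Exosc9 over 12.5% of their length, and the strand setting of the counting is not known. Ccnb1 was called in WTCM libraries alone, at -0.23 (SE 0.07), against -0.15 (SE 0.07) in APCCM libraries, and its interaction of label and day was not called. The proliferation antigen Mki67 was called in WTCM libraries (663, 657 and 655 CPM on day 4, against 772, 760.1 and 755 CPM on day 2, log2 fold change -0.21, SE 0.05, adjusted p = 0.0026) and not in APCCM libraries, where it stood at -0.08 (SE 0.05). For Mki67 too, the interaction of label and day was not called. Top2a, a topoisomerase that untangles sister chromatids, fell by 0.16 under both labels, to 492, 504 and 518 CPM on day 4 in APCCM libraries, against 555, 558 and 581 CPM on day 2. The call of Cdk1 in APCCM libraries was lost without day 2 replicate 2 or day 4 replicate 1 (adjusted p from 0.087 to 0.089), and that of Ccnb1 without WTCM day 4 replicate 1 or 3 (adjusted p from 0.058 to 0.073). Top2a was no longer called without any 1 of the 6 APCCM libraries (adjusted p from 0.0503 to 0.12), or without any WTCM library other than day 4 replicate 2 (adjusted p from 0.071 to 0.2).

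**Figure D2:**
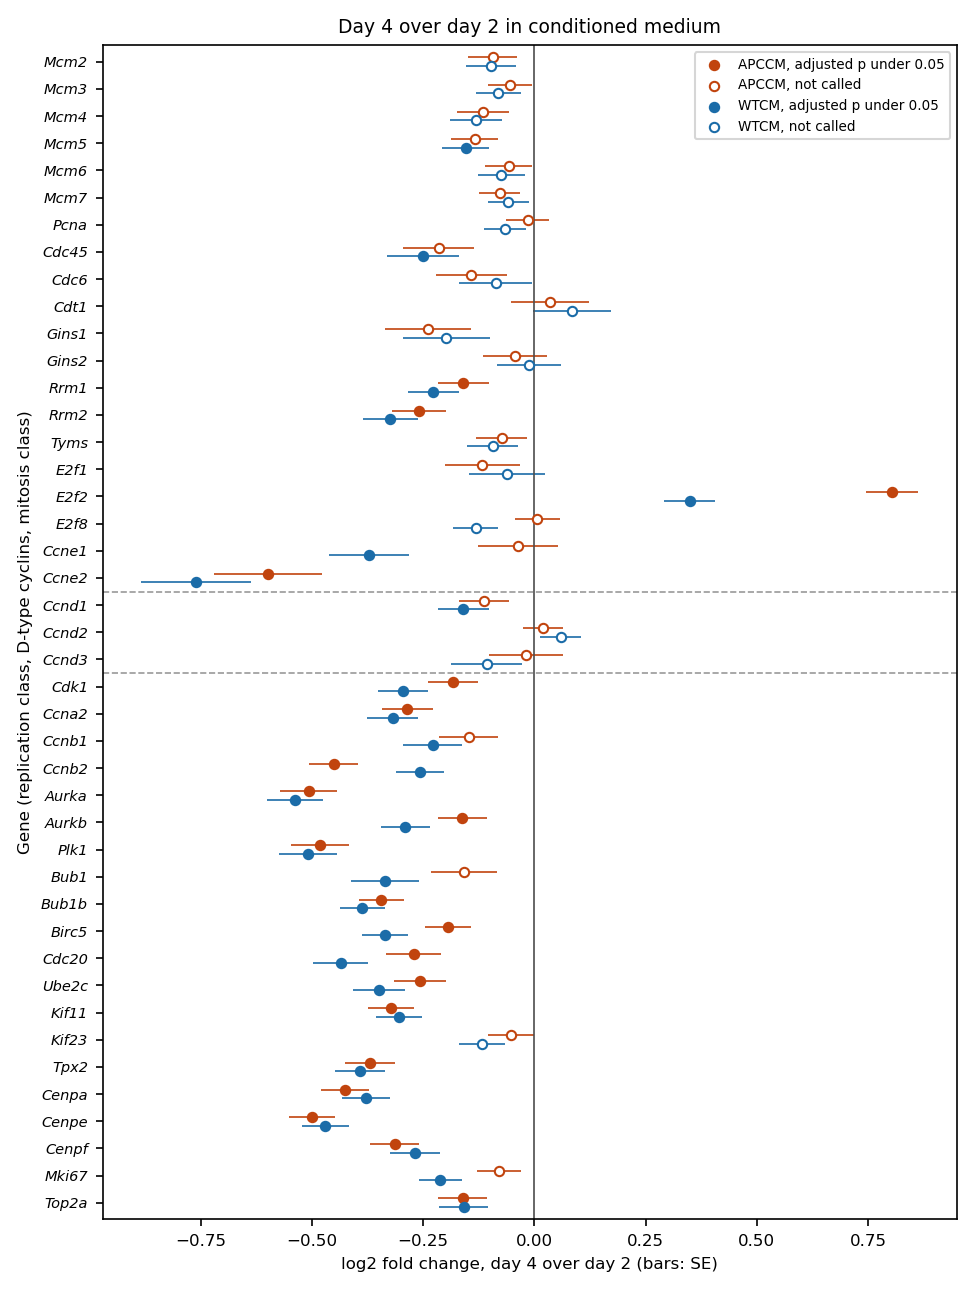
Log2 fold change of day 4 over day 2 in conditioned medium for the 43 genes, in APCCM and WTCM libraries (3 against 3 each). Bars are the SE, filled points have an adjusted p under 0.05, and dashed lines part the replication class, the D-type cyclins and the mitosis class. Mitosis genes lie left of 0 under both labels, and E2f2 lies furthest right.

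Of the 20 replication genes, 17 had a negative log2 fold change between days in APCCM and 18 in WTCM libraries, though few were called. E2f2 (ENSMUSG00000018983, GRCm38 chr4:136172394-136196057, plus strand), an activator E2F, stood at 75.04, 78.01 and 78.5 CPM on day 4 in APCCM libraries, against 44.4, 44.4 and 43.7 CPM on day 2 (log2 fold change 0.80, SE 0.06, adjusted p = 5.8e-10). In WTCM libraries it stood at 66.2, 72.6 and 76.8 CPM on day 4, against 53.4, 57.2 and 59.04 CPM on day 2 (log2 fold change 0.35, SE 0.06, adjusted p = 8.1e-05). The rise was larger in APCCM libraries, as the interaction of label and day was 0.46 (SE 0.08, adjusted p = 0.0017). E2f2 was the 1 member of 43 called in this interaction, by edgeR and by DESeq2, where 2.13% of all genes were called (0.884% higher, 1.24% lower) and 3 members had an unadjusted p under 0.05.

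Ccne2, an E-type cyclin, stood at 10.6, 9.34 and 9.96 CPM on day 4 in APCCM libraries, against 13.7, 13.1 and 18.4 CPM on day 2 (log2 fold change -0.60, SE 0.12, adjusted p = 6.9e-04), and at 7.97, 8.24 and 8.57 against 14.5, 14.6 and 13.04 CPM in WTCM libraries (log2 fold change -0.76, SE 0.12, adjusted p = 7.1e-05). The days did not overlap under either label. Exons of Ccne2 overlap those of the antisense gene Ints8 over 17.4% of their length, and no source used here gives the strand setting of the counting. Ccne1 was called in WTCM libraries, with 9.98, 11.4 and 10.2 CPM on day 4, against 15, 12.6 and 13.2 CPM on day 2 (log2 fold change -0.37, SE 0.09, adjusted p = 0.0037), and stood at -0.04 (SE 0.09) in APCCM libraries. The interaction of label and day was not called for Ccne1. Rrm2, the S-phase subunit of ribonucleotide reductase, stood at 81.01, 86.99 and 88.8 CPM on day 4 in APCCM libraries, against 93.3, 104 and 110.2 CPM on day 2 (log2 fold change -0.26, SE 0.06, adjusted p = 0.0028), and at 66.5, 73.3 and 67.2 against 82.8, 85.7 and 90.7 CPM in WTCM libraries (log2 fold change -0.32, SE 0.06, adjusted p = 4.4e-04). Its partner Rrm1 had 159.8, 169.8 and 155 CPM on day 4 in WTCM libraries, against 192, 186 and 189 CPM on day 2 (log2 fold change -0.23, SE 0.06, adjusted p = 0.0051), and 176, 178 and 186 against 185, 209.5 and 208 CPM in APCCM libraries, where the days overlapped (log2 fold change -0.16, SE 0.06, adjusted p = 0.043). Thus the nucleotide enzymes Rrm1 and Rrm2 fell under both labels, while the third, thymidylate synthase (Tyms), was not called under either. The call of Rrm1 in APCCM libraries was lost without any library other than day 2 replicate 1 (adjusted p from 0.0519 to 0.16).

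Of the 12 genes for origin licensing and the fork, 0 were called in APCCM libraries by edgeR and 2 in WTCM libraries. In WTCM libraries Cdc45, a part of the active helicase, stood at 23, 23.1 and 19.3 CPM on day 4, against 27.2, 26.6 and 23.6 CPM on day 2 (log2 fold change -0.25, SE 0.08, adjusted p = 0.025). The helicase subunit Mcm5 stood at 132, 139 and 131 CPM on day 4, against 152, 146 and 150.5 CPM on day 2 (log2 fold change -0.15, SE 0.05, adjusted p = 0.034). The day groups of these genes did not overlap in WTCM libraries, although Cdc45 shares 5.96% of its exon length with the antisense gene Ufd1, which has more reads. The same genes had -0.22 (SE 0.08) and -0.13 (SE 0.05) in APCCM libraries, and all 12 lay between -0.24 and 0.03 there. At an unadjusted p under 0.05, 3 of the 12 passed in APCCM libraries, and DESeq2 called 0. The D-type cyclin Ccnd1 fell in WTCM libraries to 168, 169 and 152 CPM on day 4, against 190.4, 177 and 179 CPM on day 2 (log2 fold change -0.16, SE 0.06, adjusted p = 0.045), while Ccnd2 and Ccnd3 were not called between days under either label. These WTCM calls were weak. That of Cdc45 was lost without day 2 replicate 1 or 2 or day 4 replicate 3 (adjusted p from 0.083 to 0.19), that of Mcm5 without day 2 replicate 1 or 3 or day 4 replicate 1 or 3 (adjusted p from 0.093 to 0.12), and that of Ccnd1 without any day 2 replicate or day 4 replicate 3 (adjusted p from 0.059 to 0.23).

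Further genes of both processes followed the same split. Of 50 other mitosis genes, 38 fell in APCCM and 44 in WTCM libraries, with medians of -0.27 and -0.28. Ccnf, an F-box protein of the cyclin family, averaged 30.6 ± 1.01 CPM on day 4 and 49.7 ± 1.53 CPM on day 2 in WTCM libraries (SD, n = 3 each; log2 fold change -0.70, SE 0.07, adjusted p = 5.1e-08). Ect2, which acts in cytokinesis, averaged 95.8 ± 4.84 CPM on day 4 and 154 ± 8.08 CPM on day 2 in APCCM libraries (SD, n = 3 each; log2 fold change -0.69, SE 0.06, adjusted p = 3.0e-08). Of 40 other replication genes, 8 fell and 1 rose in APCCM and 12 fell and 1 rose in WTCM libraries, with medians of -0.11 and -0.13. The gene that rose was Dtl, an adaptor for destruction of Cdt1, at 0.38 (SE 0.07) in APCCM and 0.40 (SE 0.07) in WTCM libraries. Cdc7, a kinase that fires origins, fell by 0.39 in both.

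Sums of cell type markers differed by day. Summed over 8 enterocyte markers, the level was 9238 to 9809 CPM in APCCM day 4 libraries, against 7385 to 7692 CPM on day 2, and 9961 to 10962 CPM in WTCM day 4 libraries, against 7367 to 7864 CPM on day 2. The 6 crypt stem cell markers summed to 3202 to 3531 CPM on day 4 and 4309 to 4379 CPM on day 2 in APCCM libraries, and to 5524 to 5920 CPM on day 4 and 5121 to 5401 CPM on day 2 in WTCM libraries. All 8 and all 6 of these markers were read in each group. Of the 8 enterocyte markers, 3 rose on day 4, 1 fell and 4 were not called in APCCM libraries. In WTCM libraries 6 of them rose, 1 fell and 1 was not called. In APCCM libraries 5 of the 6 stem cell markers fell on day 4 and 1 was not called. In WTCM libraries 1 rose, 1 fell and 4 were not called (median log2 fold change 0.03), so the higher sum there does not stand for the list. The 6 goblet cell markers summed to 6422 to 6503 CPM on day 4 and 5097 to 5988 CPM on day 2 in APCCM libraries, and to 5523 to 6974 CPM on day 4 and 3857 to 4345 CPM on day 2 in WTCM libraries. By gene, 2 goblet cell markers rose, 1 fell and 3 were not called in APCCM libraries (median log2 fold change 0.03). In WTCM libraries 3 of them rose, 1 fell and 2 were not called. The part of these cell types in the result was not tested. With plain library totals, the split of all genes by day in WTCM libraries became 1616 higher and 2345 lower, in place of 2059 and 1921. Without WTCM day 4 replicate 1, 23 of 43 members fell and 1 rose in WTCM libraries, and the class difference moved by 0.18.

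In untreated organoids on day 2, APC and WT libraries differed most in the G1 cyclins and E2F factors, while genes of each class moved both ways. Ccnd1, Ccnd2 and E2f1 were higher in APC libraries, while E2f2, E2f8, Ccne1 and Ccne2 were lower. Of 43 members, 9 were higher and 15 lower, and 24 called (55.8%) is near the 62.5% called over all genes (32.4% higher, 30.1% lower). Among the replication genes 5 were higher and 7 lower (median log2 fold change 0.07), and among the mitosis genes 2 were higher and 8 lower (median -0.11). With plain library totals in place of TMM, which moved the median of all genes by 0.17, 20 members were higher and 9 lower, and over all genes the split became 6553 higher and 3900 lower in place of 5348 and 4971.

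Ccnd1 (ENSMUSG00000070348, GRCm38 chr7:144929931-144939925, minus strand), cyclin D1, stood at 502 and 547 CPM in APC libraries, against 201 and 181 CPM in WT libraries (log2 fold change 1.46, SE 0.07, adjusted p = 4.3e-15). Ccnd2 (ENSMUSG00000000184, GRCm38 chr6:127125162-127152193, minus strand), cyclin D2, stood at 938 and 919 CPM in APC libraries, against 432 and 470.2 CPM in WT libraries (log2 fold change 1.04, SE 0.06, adjusted p = 4.1e-14). Ccnd3 was not called, with 37.02 and 43.9 CPM in APC and 41.1 and 37.9 CPM in WT libraries. For Ccnd1 and Ccnd2 the groups lay well apart, and for Ccnd3 they overlapped. Exons of Ccnd1 overlap those of the antisense gene LTO1 over 23.4% of their length, with a mean count of 308 for LTO1 and 4307 for Ccnd1 over all libraries.

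Among the E2F factors, E2f2 stood at 8.25 and 7.28 CPM in APC libraries, against 53.6 and 52.6 CPM in WT libraries (log2 fold change -2.78, SE 0.10, adjusted p = 5.8e-18), the largest change among the 43 genes here. E2f1, another activator, stood at 37.3 and 42.6 CPM in APC libraries, against 20.3 and 17.8 CPM in WT libraries (log2 fold change 1.06, SE 0.11, adjusted p = 8.1e-09). E2f8, an atypical E2F that represses, stood at 37.6 and 39.7 CPM in APC libraries, against 77.5 and 78.7 CPM in WT libraries (log2 fold change -1.01, SE 0.07, adjusted p = 2.1e-12). The activators thus moved in opposite directions. Ccne2 stood at 14.1 and 10.3 CPM in APC libraries, against 28.04 and 31.4 CPM in WT libraries (log2 fold change -1.29, SE 0.15, adjusted p = 4.4e-08). Ccne1 stood at 17.95 and 17.4 CPM in APC libraries, against 22.4 and 23.2 CPM in WT libraries (log2 fold change -0.37, SE 0.11, adjusted p = 0.0055). None of these genes overlapped between the groups, and Ccne1 was no longer called with plain library totals.

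**Figure D3:**
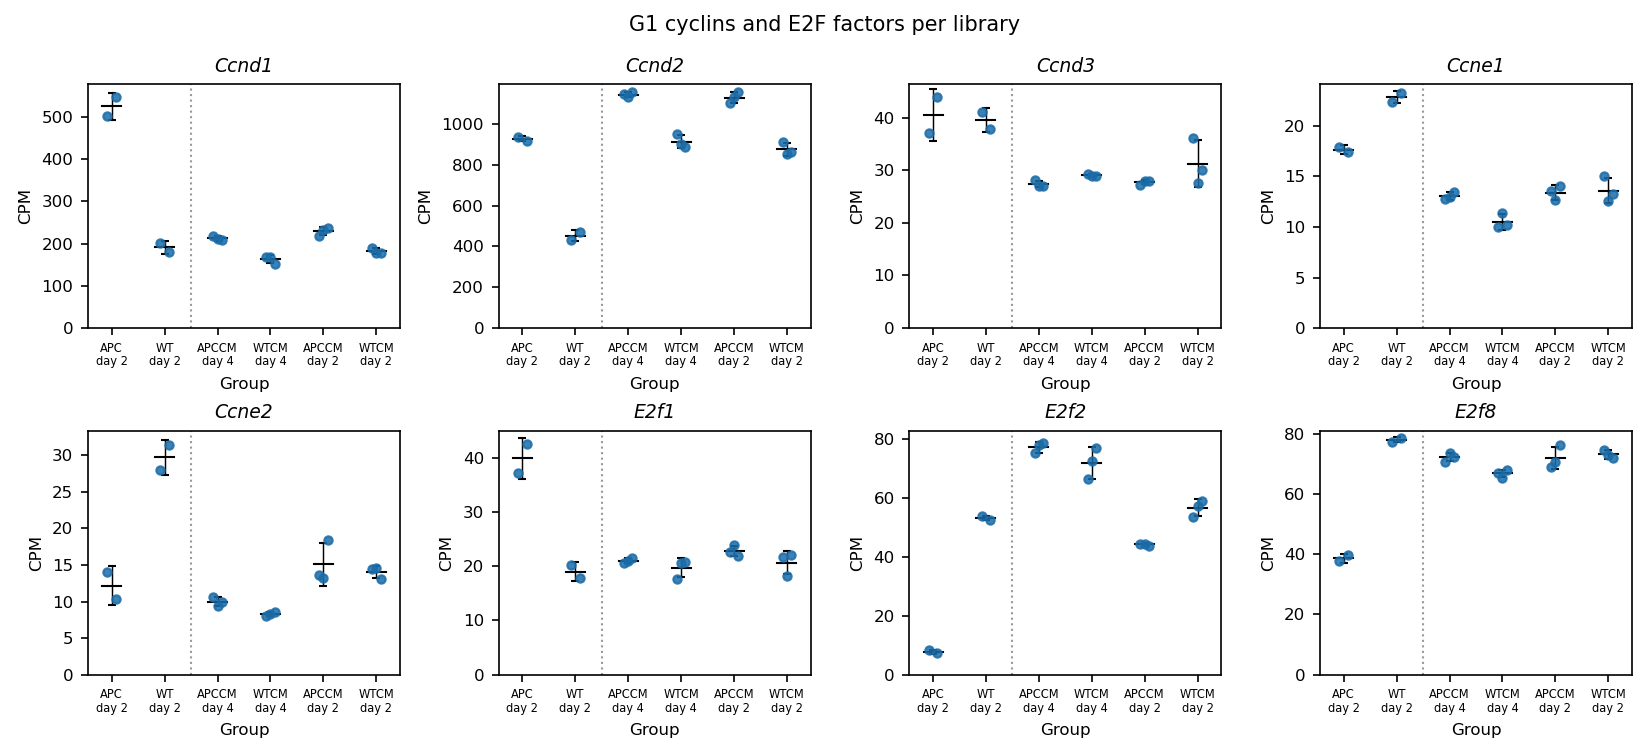
Level in CPM of the D-type and E-type cyclins and the E2F factors in each library, by group; points are libraries, horizontal lines means and bars the SD. A dotted line parts the untreated from the conditioned medium groups. Untreated APC libraries lie above WT for Ccnd1, Ccnd2 and E2f1 and below it for E2f2, E2f8, Ccne1 and Ccne2.

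Genes of origin licensing and the fork split in untreated organoids, with 4 of 12 higher and 2 lower. That is 50% called, beside 62.5% over all genes (32.4% higher, 30.1% lower). Cdt1, which loads the MCM helicase at origins, stood at 54.9 and 75.3 CPM in APC libraries, against 54.1 and 38.2 CPM in WT libraries (log2 fold change 0.48, SE 0.12, adjusted p = 0.0011). Mcm2 stood at 176 and 201 CPM in APC libraries, against 150.4 and 132 CPM in WT libraries (log2 fold change 0.41, SE 0.07, adjusted p = 1.4e-05). Pcna, the sliding clamp of the fork, stood at 127 and 134 CPM in APC libraries, against 178 and 176 CPM in WT libraries (log2 fold change -0.44, SE 0.06, adjusted p = 6.9e-07). Cdt1 and Mcm2 were thus higher and Pcna lower, each without overlap, while Mcm3, Mcm4, Mcm5, Mcm6 and Cdc45 were not called. The annotation names 2 processed copies of Pcna, and reads that align to several places are in no gene. Mcm7 and the licensing factor Cdc6 were also higher at 0.30 (SE 0.06) and 0.35 (SE 0.10), and Gins2 of the active helicase was lower at -0.35 (SE 0.09). The calls of Cdt1 were lost without APC replicate 5 or WT replicate 5 (adjusted p from 0.054 to 0.093), of Cdc6 without APC replicate 4 (adjusted p = 0.067) and of Gins2 without WT replicate 4 (adjusted p = 0.0501). Gins2 is uncertain, as 67.3% of its exon length overlaps the antisense gene Gse1. Mcm7 shares 12.6% of its exon length with other genes, the antisense genes Ap4m1 and Cops6 among them. Tyms stood at 56.7 and 59.5 CPM in APC libraries, against 71.9 and 73.1 CPM in WT libraries (log2 fold change -0.32, SE 0.07, adjusted p = 5.9e-04). With plain library totals neither Tyms (-0.15, adjusted p = 0.10) nor Gins2 (-0.18, adjusted p = 0.095) was called. Under the same totals Mcm3 (0.30), Mcm4 (0.25), Mcm5 (0.23), Mcm6 (0.28), Cdc45 (0.34) and Gins1 (0.32) were called higher.

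Within the mitosis class, Birc5, the survivin subunit of the chromosomal passenger complex, stood at 51.9 and 51.03 CPM in APC libraries, against 84.7 and 86.96 CPM in WT libraries (log2 fold change -0.74, SE 0.07, adjusted p = 5.5e-10). Plk1 stood at 54.1 and 65.2 CPM in APC libraries, against 94.8 and 80.2 CPM in WT libraries (log2 fold change -0.56, SE 0.09, adjusted p = 4.8e-06). Bub1 stood at 53.03 and 46.7 CPM in APC libraries, against 63.03 and 64.8 CPM in WT libraries (log2 fold change -0.36, SE 0.09, adjusted p = 0.0017). In all 3 the APC libraries lay below both WT libraries, while the kinases Aurkb and Aurka, at 0.03 (SE 0.07) and -0.09 (SE 0.08), were not called. Bub1 was no longer called with plain library totals (log2 fold change -0.19, adjusted p = 0.094), and neither was Bub1b (-0.05). Under the same totals Aurkb (0.20), Ube2c (0.26), Cenpa (0.24), Cenpe (0.18) and Ccnb2 (0.18) were called higher. Kif23 stood at 78.95 and 71.3 CPM in APC libraries, against 121 and 127 CPM in WT libraries (log2 fold change -0.72, SE 0.07, adjusted p = 7.5e-10). Cenpf, a kinetochore protein, stood at 88.2 and 76.97 CPM in APC libraries, against 63.5 and 65.1 CPM in WT libraries (log2 fold change 0.36, SE 0.08, adjusted p = 2.1e-04). Tpx2 was higher as well, with 151 and 128 CPM in APC libraries, against 114 and 120.1 CPM in WT libraries (log2 fold change 0.25, SE 0.07, adjusted p = 0.003). So spindle and centromere genes moved both ways, and Tpx2 was no longer called without APC replicate 4 (adjusted p = 0.14).

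Ccna2 stood at 181 and 161 CPM in APC libraries, against 239 and 261 CPM in WT libraries (log2 fold change -0.55, SE 0.07, adjusted p = 2.4e-07), while Cdk1, Ccnb1 and Ccnb2 were not called. Mki67 stood at 397 and 369 CPM in APC libraries, against 469.6 and 522 CPM in WT libraries (log2 fold change -0.37, SE 0.06, adjusted p = 8.7e-06). Neither gene overlapped between the groups. The 19 members that were not called lay between -0.17 and 0.17, and the kinesin Kif11 was called at -0.15 (SE 0.06) with overlapping libraries. Kif11 turned to 0.02 with plain library totals and was not called without replicate 5 of either group (adjusted p from 0.41 to 0.55).

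**Figure D4:**
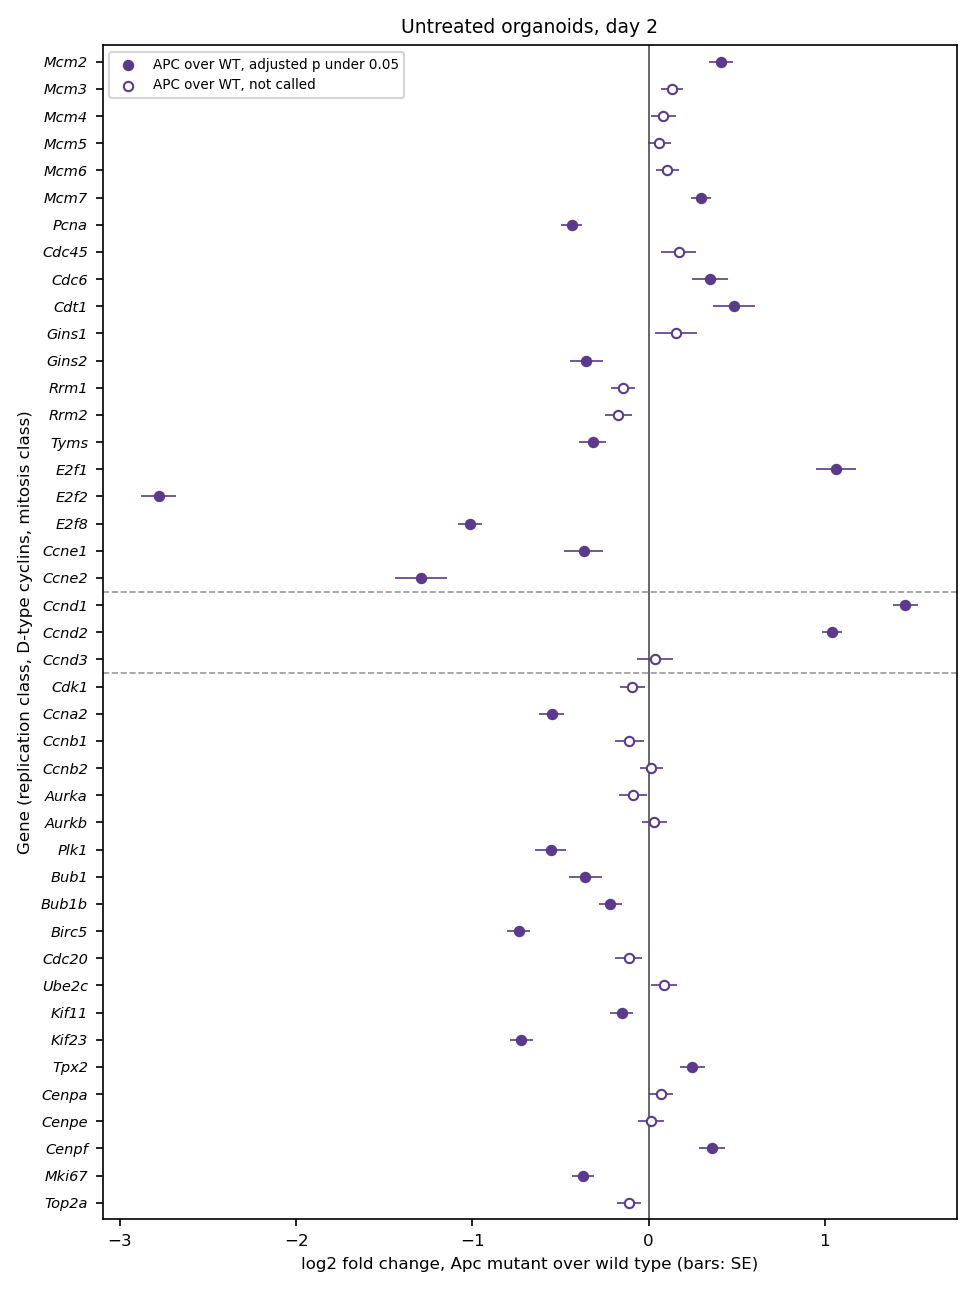
Log2 fold change of untreated APC over WT libraries on day 2 for the 43 genes (2 against 2); bars are the SE and filled points have an adjusted p under 0.05. Dashed lines part the replication class, the D-type cyclins and the mitosis class. The largest changes are among the E2F factors, E-type and D-type cyclins, from -2.78 for E2f2 to 1.46 for Ccnd1.

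Other genes of the pathway were also split. Of 40 other replication genes 11 were higher and 10 lower (median 0.01), and of 50 other mitosis genes 15 were higher and 18 lower (median -0.01). The shares called, 52.5% and 66%, are near the 62.5% called over all genes (32.4% higher, 30.1% lower), so the split is not particular to these lists. The clamp loader subunit Rfc3 averaged 96.8 ± 3.11 CPM in APC and 47.9 ± 0.00397 CPM in WT libraries (SD, n = 2 each; log2 fold change 1.01, SE 0.08, adjusted p = 2.6e-11). Cdca3, an adaptor for degradation at mitotic entry, averaged 79.4 ± 1.86 CPM in APC and 144 ± 0.397 CPM in WT libraries (SD, n = 2 each; log2 fold change -0.86, SE 0.06, adjusted p = 9.9e-12). Most markers of mature cells were lower in APC libraries. The 8 enterocyte markers summed to 551 to 570 CPM in APC libraries and 8210 to 8294 CPM in WT libraries. Krt20 was at 0 in APC libraries, and of the 8 markers 7 were lower and 1 was higher. Of 5 Paneth cell markers 4 were lower and 1 was higher. The 6 crypt stem cell markers summed to 2507 to 2521 CPM in APC and 3633 to 3939 CPM in WT libraries, although 4 of the 6 were higher in APC libraries and Olfm4, at 0.257 CPM in APC and 1982 CPM in WT libraries on average, set the lower sum. The part of these cell types in the result was not tested. The fibroblast and stroma list summed to 271 to 287 CPM in APC and 5.35 to 5.97 CPM in WT libraries. Vim alone gave 270.1 to 285 CPM of the APC sum, and the defining markers Col1a2, Col3a1 and Dcn were at 0 in both.

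Between the labels in conditioned medium, differences were small and mostly upward in APCCM libraries. On day 4, 14 of 43 members were higher (32.6%) where 7.83% of all genes were higher, 7.80% lower and 15.6% called in all, and 0 were lower by edgeR, with 0 lower at an unadjusted p under 0.05 and 0 by DESeq2. On day 2, 8 members were higher and 1 lower (20.9% called), where 16.7% of all genes were called (8.54% higher, 8.15% lower). The median log2 fold change of the members was 0.15 on day 4 and 0.12 on day 2, beside 0.00 over all genes. Ccnd1, Ccnd2, Rrm2, Cenpe, Cenpf and Mki67 were higher on both days, which is 42.9% of the day 4 list and 75.0% of the day 2 list, and these comparisons share no library. The overlap over all genes was not counted here either. Class by class, 4 of 20 replication and 8 of 20 mitosis genes were higher on day 4, and 2 and 4 on day 2.

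The D-type cyclins Ccnd1 and Ccnd2 were higher in APCCM libraries on both days. Ccnd1 stood at 218, 211 and 207 CPM in APCCM libraries on day 4, against 168, 169 and 152 CPM in WTCM libraries (log2 fold change 0.38, SE 0.06, adjusted p = 3.8e-05). On day 2 it stood at 218, 233 and 237 CPM in APCCM libraries, against 190.4, 177 and 179 CPM in WTCM libraries (log2 fold change 0.33, SE 0.06, adjusted p = 1.8e-04). The labels did not overlap on either day. Ccnd2 stood at 1147, 1131 and 1154 CPM in APCCM libraries on day 4, against 951, 903 and 887 CPM in WTCM libraries (log2 fold change 0.32, SE 0.05, adjusted p = 1.6e-05), and at 1100.1, 1131 and 1155 against 913, 853 and 863 CPM on day 2 (log2 fold change 0.36, SE 0.05, adjusted p = 2.8e-06). Every APCCM library lay above every WTCM library of its day. Ccnd3 went uncalled, at -0.09 (SE 0.08) on day 4 and -0.17 (SE 0.08) on day 2.

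Of the other regulators of S phase, Ccne1 stood at 12.8, 12.96 and 13.5 CPM in APCCM libraries on day 4, against 9.98, 11.4 and 10.2 CPM in WTCM libraries (log2 fold change 0.31, SE 0.09, adjusted p = 0.018). E2f2 was the member that was lower, on day 2, with 44.4, 44.4 and 43.7 CPM in APCCM libraries, against 53.4, 57.2 and 59.04 CPM in WTCM libraries (log2 fold change -0.36, SE 0.06, adjusted p = 1.3e-04), and it stood at 0.10 (SE 0.06) on day 4. Neither gene overlapped between the labels where it was called. Rrm2 stood at 81.01, 86.99 and 88.8 CPM in APCCM libraries on day 4, against 66.5, 73.3 and 67.2 CPM in WTCM libraries (log2 fold change 0.31, SE 0.06, adjusted p = 8.8e-04), and at 93.3, 104 and 110.2 against 82.8, 85.7 and 90.7 CPM on day 2 (log2 fold change 0.25, SE 0.06, adjusted p = 0.0065). Cdc6 was called on day 2, with 30.6, 35.3 and 34.9 CPM in APCCM libraries, against 29.6, 28.1 and 25.2 CPM in WTCM libraries (log2 fold change 0.28, SE 0.08, adjusted p = 0.019). On day 4 the helicase subunits Mcm4 (131, 130.5 and 141 CPM in APCCM libraries, against 124, 122 and 109.7 CPM in WTCM libraries, log2 fold change 0.18, SE 0.06, adjusted p = 0.041) and Mcm6 (239, 237 and 242 CPM, against 219.8, 224 and 198 CPM, log2 fold change 0.16, SE 0.05, adjusted p = 0.037) were called. All 20 replication genes had a positive log2 fold change on day 4, from 0.03 to 0.31, of which 4 passed the test. The calls of Ccne1 (APCCM replicate 3, WTCM replicates 1 and 3; adjusted p from 0.068 to 0.079), Mcm4 (all but WTCM replicate 1; adjusted p from 0.0503 to 0.24) and Mcm6 (all but WTCM replicates 1 and 2; adjusted p from 0.075 to 0.23) were lost without any 1 of the day 4 libraries named beside them. That of Cdc6 was lost without day 2 APCCM replicate 2 or 3 or WTCM replicate 3 (adjusted p from 0.073 to 0.12).

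In the mitosis class, Cenpf stood at 149.6, 151 and 148 CPM in APCCM libraries on day 4, against 129, 124 and 114 CPM in WTCM libraries (log2 fold change 0.29, SE 0.06, adjusted p = 6.6e-04), and at 189.7, 178 and 190.5 against 142, 149 and 152 CPM on day 2 (log2 fold change 0.33, SE 0.06, adjusted p = 1.2e-04). Cenpe stood at 90.1, 94.3 and 95.4 CPM in APCCM libraries on day 4, against 78.9, 84.2 and 79.5 CPM in WTCM libraries (log2 fold change 0.21, SE 0.05, adjusted p = 0.0078), and at 137, 133 and 127 against 111, 113 and 113 CPM on day 2 (log2 fold change 0.24, SE 0.05, adjusted p = 0.0022). Mki67 stood at 798, 837 and 764 CPM in APCCM libraries on day 4, against 663, 657 and 655 CPM in WTCM libraries (log2 fold change 0.28, SE 0.05, adjusted p = 2.2e-04), and at 870.1, 828 and 837 against 772, 760.1 and 755 CPM on day 2 (log2 fold change 0.15, SE 0.05, adjusted p = 0.039). These 3 were higher in every APCCM library on both days. The checkpoint kinase Bub1 was called on day 4, with 37.3, 38.2 and 40.5 CPM in APCCM libraries, against 30.97, 33.2 and 28.7 CPM in WTCM libraries (log2 fold change 0.32, SE 0.08, adjusted p = 0.0039). Aurkb, the kinase of the chromosomal passenger complex, stood at 55.7, 59.2 and 59.04 CPM in APCCM libraries on day 4, against 46.3, 51.4 and 48.8 CPM in WTCM libraries (log2 fold change 0.25, SE 0.05, adjusted p = 0.0024). Its partner Birc5 stood at 0.18 (SE 0.05), Kif23 at 0.20 (SE 0.05) and Cdk1 at 0.18 (SE 0.06) on day 4, all called and without overlap. Cenpa was called on day 2, at 0.18 (SE 0.05). The day 4 call of Birc5 was lost without APCCM replicate 1 or 2 or WTCM replicate 1 or 3 (adjusted p from 0.053 to 0.079), and that of Cdk1 without APCCM replicate 2 or 3 or WTCM replicate 1 or 3 (adjusted p from 0.089 to 0.13). The day 2 call of Cenpa was lost without APCCM replicate 3 or WTCM replicate 1 or 2 (adjusted p from 0.065 to 0.11), and that of Mki67 without any library other than APCCM replicate 2 (adjusted p from 0.058 to 0.14).

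**Figure D5:**
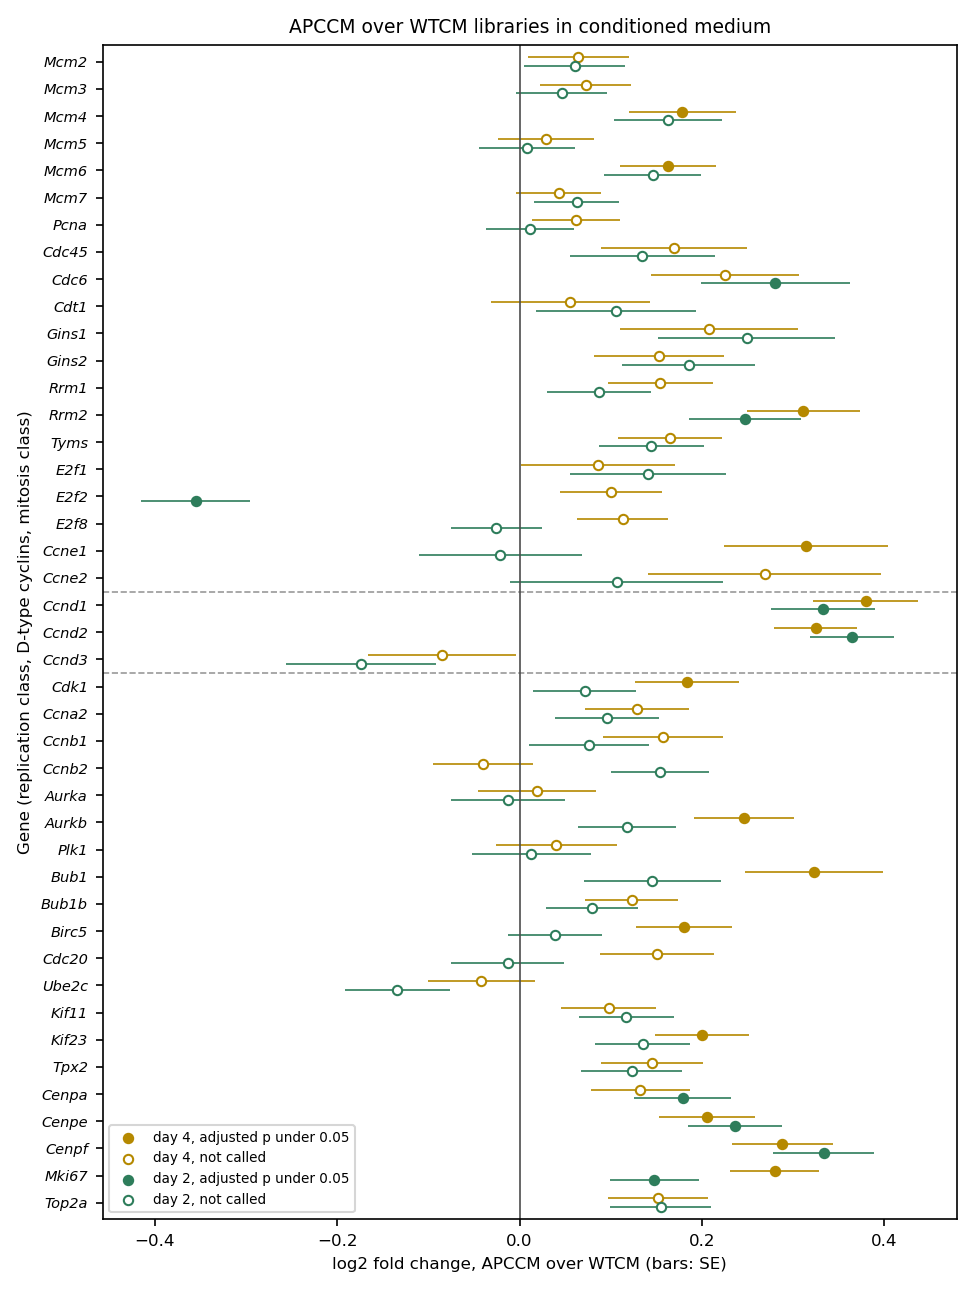
Log2 fold change of APCCM over WTCM libraries, at day 4 and at day 2, for the 43 genes (3 against 3 each); bars are the SE and filled points have an adjusted p under 0.05. Dashed lines part the replication class, the D-type cyclins and the mitosis class. Most points lie between 0 and 0.4, and E2f2 on day 2 lies at -0.36.

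Of 50 other mitosis genes 19 were higher in APCCM libraries on day 4 and 19 on day 2, and the rest were not called, and of 40 other replication genes 8 and 9 were higher. Spc25, a kinetochore subunit, averaged 21.1 ± 1.64 CPM in APCCM and 15.5 ± 1.67 CPM in WTCM libraries on day 4 (SD, n = 3 each; log2 fold change 0.43, SE 0.08, adjusted p = 7.4e-04). The atypical E2F gene E2f7 averaged 30.5 ± 0.777 CPM in APCCM and 24.1 ± 1.35 CPM in WTCM libraries on day 4 (SD, n = 3 each; log2 fold change 0.34, SE 0.07, adjusted p = 0.0015). The crypt stem cell markers summed lower, to 3202 to 3531 CPM in APCCM and 5524 to 5920 CPM in WTCM libraries on day 4, and to 4309 to 4379 CPM in APCCM and 5121 to 5401 CPM in WTCM libraries on day 2. The 7 enteroendocrine markers summed higher, to 1041 to 1134 CPM in APCCM and 724 to 855 CPM in WTCM libraries on day 4, and to 793 to 899 CPM in APCCM and 492 to 513 CPM in WTCM libraries on day 2. By gene, 5 of the 7 were higher and 1 was lower on each day, with lowest log2 fold changes of -0.47 on day 4 and -0.78 on day 2. On day 2, 5 of 6 goblet cell markers and 4 of 5 Paneth cell markers were higher in APCCM libraries and the others were not called (median log2 fold changes 0.71 and 0.65), and the Paneth cell markers summed to 5538 to 6000.0 CPM in APCCM and 4135 to 4293 CPM in WTCM libraries. On day 4, 3 of 6 goblet cell markers were higher, and 2 of 5 Paneth cell markers were higher and 1 lower. The part of these cell types was not tested. The count of members that were higher was sensitive to the fit, reaching 22 on day 4 and 13 on day 2 with plain library totals, under which the split of all genes became 1744 higher and 928 lower on day 4 (1293 and 1287 with TMM) and 1671 and 918 on day 2 (1410 and 1345 with TMM). It was 11 on day 4 without WTCM day 4 replicate 1, 9 without WTCM day 4 replicate 3, and 5 on day 2 without APCCM day 2 replicate 3.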

How the data were processed

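Total RNA depleted of ribosomal RNA was sequenced from 16 organoid libraries. The authors deposited raw counts of reads per Ensembl gene, with 5 summary lines per library. The submitters' processing notes name Trimmomatic 0.36, HISAT2 2.1.0, HTSeq 0.6.1p1 and build GRCm38, and the strand setting is not given in the sources used here. Of 46078 rows, 45143 (98.0%) took a symbol from GENCODE M21. Reads in no feature (14.4 to 19.2% in conditioned medium, 4.78 to 7.32% untreated) and reads aligned to several places (26.5 to 33.3% and 36.5 to 38.9%) stayed out of library sizes and tests.

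From these counts, edgeR 4.0.16 with limma 3.58.1 in R 4.3.3 fitted 1 quasi-likelihood model to all 6 groups, after TMM scaling and filterByExpr, with Benjamini-Hochberg adjustment over 16510 genes in each of 5 comparisons of groups and 1 interaction. Spread was shared over the groups (10 residual degrees of freedom, common biological coefficient of variation 5.96%), and the SE is the log2 fold change divided by the square root of F. Levels are counts per fixed total of reads (CPM) on TMM-scaled library sizes. Libraries held 8325979 gene counts or more, and counting error was not separated from the spread between replicates. The script was tested on simulated data. Named genes are the called D-type and E-type cyclins and E2F factors and, of each other role, up to 3 called genes of largest change without overlap between groups. Others were named after their values were seen. The members and lists were chosen with earlier results of these data known. Alternatives were DESeq2 1.42.0, RLE factors, plain totals, TMM without Gm26917, no filter, a replicate block, only the groups compared, other class summaries and each library left out. Figures and promoter searches used Python 3.11.15 with pandas 2.3.3, numpy 2.4.6 and matplotlib 3.10.9.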

Additional observations from a re-analysis of the deposited data

Results flagged for a closer look

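The day difference of E2f2, an activator E2F, differed between labels in conditioned medium, with an interaction of 0.46 on the log2 scale (SE 0.08, adjusted p = 0.0017, edgeR's quasi-likelihood test over all genes). The log2 fold change of day 4 over day 2 was 0.80 in APCCM and 0.35 in WTCM libraries, and all 3 libraries of day 4 lay above all 3 of day 2 under each label. The day difference of Ccng2, a cyclin G known as a target of FoxO factors in arrested cells, also differed, with an interaction of -0.59 (SE 0.10, adjusted p = 0.0016). Ccng2 averaged 27.9 ± 2.33 CPM on day 4 and 40.8 ± 2.29 CPM on day 2 in APCCM libraries, and 36.7 ± 2.096 CPM on day 4 and 35.8 ± 1.12 CPM on day 2 in WTCM libraries (SD, n = 3 each). No explanation was tested for either gene.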

How the results depend on the processing

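With plain library totals 20 members were higher and 9 lower in untreated APC libraries, and Kif11 turned to 0.017. Members higher in APCCM than in WTCM libraries on day 2 numbered 13 with plain totals, 13 with DESeq2 and 15 with only the groups compared, and on day 4 22 with plain totals and 22 with only the groups compared. The interaction called 146 genes higher and 205 lower, but 97 higher with the replicate block, and 236 higher and 332 lower with only the groups compared. E2f2 was called in the interaction under every alternative. As a log2 ratio of summed CPM, the class difference was 0.18 between untreated APC and WT libraries, -0.047 and -0.068 between labels on days 2 and 4, 0.17 between days in WTCM and 0.15 in APCCM libraries. With narrower classes it was 0.19 in untreated libraries, 0.031 between labels on day 2 and 0.23 between days in WTCM libraries. The cause of these shifts was not tested.

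With each library left out in turn, genes lower in APCCM libraries on day 2 numbered 713 to 1135 (1345 with all libraries), the lowest without APCCM day 2 replicate 3 and 852 without WTCM day 2 replicate 1. Members higher numbered 5 to 9 on day 2 and 9 to 17 on day 4, and members lower on day 2 numbered 1 to 2, with 2 without replicate 2 of either label. Genes higher in the interaction numbered 87 to 147, with 89 without APCCM day 2 replicate 3, 87 without WTCM day 2 replicate 1 and 93 without WTCM day 4 replicate 1.

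Same-numbered libraries in conditioned medium correlated at -0.05 to 0.05 in their deviations from group means, which is too low to settle whether the numbers pair them. Between APCCM day 2 and day 4 libraries, same-numbered pairs stood at 0.046, 0.053 and 0.050. Pairs with different numbers there stood at -0.065 to 0.019. With the replicate block 17 and 23 members fell between days in APCCM and WTCM libraries. In untreated libraries the correlation was -0.15, and with the numbers crossed, a pairing chosen after seeing the data, 26 members were called, against 24 with and without the block. Depth limits most Gins1, Ccne2 and Ccne1, the members with the lowest mean counts (230.5, 245 and 261).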

Other observations

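The 14 G1 kinases, inhibitors and pocket proteins, which set whether the D-type and E-type cyclins act, gave 8 genes higher and 3 lower in untreated APC libraries (78.6% called, beside 62.5% of all genes, 32.4% higher and 30.1% lower). Cdk6, a partner of the D-type cyclins, averaged 298 ± 18.7 CPM in APC and 101 ± 3.31 CPM in WT libraries (SD, n = 2 each), and Cdk4 averaged 520.4 ± 13.6 CPM in APC and 335 ± 1.67 CPM in WT libraries. The inhibitor Cdkn1a averaged 231 ± 10.4 CPM in APC and 115 ± 9.13 CPM in WT libraries. Cdkn2b, an inhibitor of Cdk4 and Cdk6, was lower, at 9.41 ± 0.273 CPM in APC and 22.2 ± 3.16 CPM in WT libraries. Other inhibitor genes also differed. Cdkn2a had 3.12 and 6.30 CPM in APC and 0.164 and 0.109 CPM in WT libraries, all low levels. Cdkn1c had 13.9 and 13.8 CPM in APC and 5.15 and 3.06 CPM in WT libraries. Cdkn1b went the other way, with 76.9 and 69.3 CPM in APC and 89.8 and 84.3 CPM in WT libraries. Kinases and inhibitors were thus both among the genes that were higher.

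In conditioned medium, 3 of the 14 were higher and 4 lower in APCCM than in WTCM libraries on day 4 (50.0% called, beside 15.6% of all genes), and 2 were higher and 1 lower on day 2 (21.4%, beside 16.7%). Cdkn1a averaged 80.5 ± 0.544 CPM in APCCM and 51.0 ± 1.92 CPM in WTCM libraries on day 4, and Ccng1, like Cdkn1a a known p53 target, averaged 261 ± 18.2 CPM in APCCM and 179 ± 3.13 CPM in WTCM libraries (SD, n = 3 each). Both were higher on day 2 as well. Cdk4 was lower on both days, at 221 ± 1.46 CPM in APCCM and 258 ± 4.85 CPM in WTCM libraries on day 4. Cdkn2b was higher on day 4 than on day 2 under both labels, at 37.0 ± 1.52 against 22.8 ± 1.05 CPM in APCCM and 29.2 ± 1.57 against 23.5 ± 1.86 CPM in WTCM libraries.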
